A study of Mus musculus with 16 samples.

Results

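The mitochondrial genome of the mouse encodes 37 genes, which carry symbols beginning with mt-, and all 37 were found by that prefix among the 46983 genes of the count table. They are 13 protein genes, 2 rRNA genes and 22 tRNA genes. In cytoplasmic lysates of mouse embryonic stem cells (ESCs) they held 5.95% to 7.11% of all counts, and in polysome fractions of the same lysates 1.1% to 2.37%. The rRNA genes alone, as left after rRNA depletion, held 3.65% to 4.44% in lysates and 0.614% to 1.72% in polysome fractions. Only 11 of the 37 passed the filter on low counts and could be tested, namely 7 protein genes, both rRNA genes and 2 tRNA genes. With RAM siRNA mt-Nd2 was higher in the lysate, by 0.42 on the log2 scale, as were 8 of the 11 genes when the replicate number was taken into account, a fit in which 20.3% of all genes were called higher and 19% lower. All 11 were lower in polysomes than in the lysate with either siRNA, where 34.3% of all genes were called lower in control and 25.9% in RAM siRNA cells.

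Mitochondrial DNA is transcribed by its own polymerase, POLRMT, into long transcripts that are cut at the tRNAs to free the mRNAs and rRNAs. The mRNAs receive no m7G cap and have little or no leader before their first codon, and a short poly(A) tail often completes their stop codon. They are translated inside mitochondria by mitochondrial ribosomes, and their products are core subunits of respiratory complexes I, III and IV and of ATP synthase, which assemble with subunits encoded in the nucleus. RAM, encoded by Ramac, is the activator of RNMT, the methyltransferase that completes the cap of mRNAs transcribed in the nucleus.

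The cells were 46C ESCs, a line from 129Ola mice that carries GFP at the Sox1 locus, grown on gelatin with LIF. Control cells received a non-targeting siRNA and RAM siRNA cells an siRNA against RAM, and all were harvested after 48 hr. Each lysate was made in a detergent buffer with cycloheximide, which holds cytoplasmic ribosomes on mRNA, and gave an input library and a library of pooled polysome fractions from a sucrose gradient. There were thus 4 groups, input or polysomes with control or RAM siRNA, and 4 libraries in each from 4 separate experiments numbered 1 to 4. Input RNA was purified with Trizol, whereas polysome RNA was extracted with phenol and precipitated with LiCl, so fraction and purification cannot be told apart. All libraries were depleted of cytoplasmic and mitochondrial rRNA before sequencing of read pairs of 75 bases. The data come from 1 cell line and 1 RAM siRNA reagent.

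Libraries held 16647523 to 20147833 counts. Ramac fell from 197 to 206 counts per input library in control cells to 46 to 58 in RAM siRNA cells, and from 122 to 256 to 5 to 45 in polysomes. All 9 ESC markers checked had a mean of at least 1 CPM in every group, with a summed level in input of 4880 to 5240 CPM in control cells and 4050 to 4690 CPM in RAM siRNA cells. Neural markers summed to 74.7 to 85.3 and 81.1 to 93.9 CPM, and fibroblast markers to 11.9 to 14.1 and 15.0 to 18.0 CPM, in control and RAM siRNA input. Dcx and Col3a1 were at or near 0. Single neural markers went both ways, with 3 of the 5 tested higher and 2 lower in input. Nes had 23.2 to 33.2 CPM in control and 31.7 to 42.5 CPM in RAM siRNA input, and Pax6 10.4 to 14.1 and 7.02 to 11.6 CPM. The part of these shifts in the results on mitochondrial genes was not tested. Libraries with the same number deviated from their group means together, so each comparison is given first with the groups alone and then with a term for the replicate number (the replicate block). Polysome libraries varied more than input libraries, and values that rest on replicates 1 and 2 or on 3 and 4 are named where they differ.

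The starts of the 7 protein genes that could be tested are shown because the annotated transcript of each opens with its first codon. This describes the annotation, and where the mRNAs themselves start was not tested. The annotated mt-Nd4 (chrM:10167-11544) begins inside mt-Nd4l (chrM:9877-10173) on the same strand. They are the first 24 bases of each GENCODE M21 transcript (GRCm38), 5′ to 3′ along the coding strand, with the first codon in capitals.
mt-Nd1: GTGttctttattaatatcctaaca
mt-Nd2: ATAaatcctatcacccttgccatc
mt-Nd4: ATGctaaaaattattcttccctca
mt-Nd5: ATCaatattttcacaacctcaatc
mt-Nd6: ATGaataattatatttttgtttta
mt-Cytb: ATGacaaacatacgaaaaacacac
mt-Co1: ATGttcattaatcgttgattattc

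Of the 13 protein genes, 9 open with ATG, and mt-Nd1, mt-Nd2, mt-Nd3 and mt-Nd5 with GTG, ATA, ATT and ATC, which the mitochondrial code reads as starts. In 3 of them, mt-Co3, mt-Nd4 and mt-Cytb, the annotated transcript ends on a single T beyond the last codon. On the mitochondrial chromosome 28 genes lie on the plus strand and 9 on the minus strand, the 9 being mt-Nd6 and 8 tRNA genes. The end of mt-Nd5 (chrM:11742-13565) overlaps the end of mt-Nd6 (chrM:13552-14070) on the other strand. The libraries keep the strand, but the strand setting of the read counting is not given in the sources used here, so counts of mt-Nd6 may include reads of the opposite strand.

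Levels differed widely between genes. In input of control cells the highest levels per length were those of mt-Rnr2, the rRNA of the large mitochondrial ribosome subunit, at 21223 ± 1288 CPM per kb (CPM, counts scaled to the TMM-adjusted library size, here divided by transcript length; SD, n = 4), and of mt-Co1, the catalytic subunit of complex IV, at 10797 ± 885 CPM per kb (SD, n = 4). Next came mt-Nd1, a membrane subunit of complex I, at 3916 ± 142, and mt-Rnr1, the rRNA of the small subunit, at 3673 ± 231 CPM per kb (SD, n = 4), whose ranges of CPM per kb overlapped. Both rRNA values describe what was left after depletion, and how complete depletion was in each library was not tested.

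The remaining genes tested were lower. Cytochrome b of complex III, mt-Cytb, had 1744 ± 40.9 CPM per kb (SD, n = 4). The complex I subunits mt-Nd2, mt-Nd4 and mt-Nd5 had 432 ± 19.8, 201 ± 35.0 and 188 ± 37.6 CPM per kb, and mt-Nd6, the one protein gene on the minus strand, 131 ± 37 (SD, n = 4 each). Values for mt-Nd4 and mt-Nd5 differed by less than their spread. The tryptophan tRNA mt-Tw had 74.1 ± 10.9 and the proline tRNA mt-Tp 91.6 ± 7.03 CPM per kb (SD, n = 4).

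The other 26 genes did not pass the filter of at least 1 CPM in at least 10 libraries, and 17 of the 37 had under 10 counts in every library. Of the 26, 9 were at 0 counts in all 16 libraries, namely mt-Nd4l and 8 tRNAs. A count of 0 allows up to 3 counts, or 0.149 to 0.18 CPM depending on the library. The tRNA with the most counts among the untested, the threonine tRNA mt-Tt, had 65 to 231 counts per input control library and 3 to 5 per polysome control library. It missed the filter because it was under 1 CPM in polysomes, and a gene confined to input could not pass. Mitochondrial tRNAs are 59 to 75 bases long, no longer than 1 read. Those that passed, mt-Tw and mt-Tp, are 67 bases long, and the part of length in the low counts was not tested.

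Of the 13 protein genes, 6 had almost no counts. In input of control cells mt-Co2 and mt-Co3, the other core subunits of complex IV, had 31 to 51 and 45 to 61 counts per library, against 263985 to 343508 for mt-Co1. The ATP synthase subunits mt-Atp6 and mt-Atp8 had 10 to 15 and 0 to 2 counts, mt-Nd3 of complex I had 3 to 8, and mt-Nd4l had none. These are counts as deposited, and the low values lie in adjacent genes, from chrM:7013 to chrM:10173.

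Of these 6, 5 have a second copy among the annotated transcripts of the nucleus. For mt-Co2, mt-Atp6, mt-Co3, mt-Nd3 and mt-Nd4l, 97.8% to 99.9% of all windows of 75 bases, the length of a read, occurred letter for letter in another annotated transcript. The copies lie side by side on the minus strand of chromosome 1 as the pseudogenes Gm28661, Gm10925, Gm28437, Gm28438 and Gm10222, between 24612407 and 24615565 (GRCm38), and aligned to the mitochondrial genes with 0 substitutions over 681, 678, 783, 342 and 294 bases. The 30 bases at the middle of the alignment of mt-Co2 (chrM:7338-7367) with Gm28661 (chr1:24615211-24615240, minus strand) are given because they show that such a read has no base to tell both loci apart, and there are no capitals since no base differs.
mt-Co2: aatatactgactatgaagacctatgctttg
Gm28661: aatatactgactatgaagacctatgctttg

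The pseudogenes themselves had more counts than the mitochondrial genes they match. Gm28661 had 409 to 468, Gm28437 555 to 737, Gm28438 161 to 176 and Gm10925 120 to 146 counts per input control library. The same 4 had 34 to 42, 63 to 72, 11 to 26 and 10 to 19 counts per polysome control library. How reads with several matches were counted is not given in the sources used here, so neither the mitochondrial nor the pseudogene counts of these pairs can be read as a transcript level. The sixth gene, mt-Atp8, had no shared window, but only annotated transcripts were searched. It follows mt-Co2 and overlaps mt-Atp6 (chrM:7766-7969 and chrM:7927-8607). Whether chromosome 1 holds a copy of mt-Atp8 between Gm10925, which ends at 24614651, and Gm28661, which starts at 24614885, was not tested.

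**Figure D1:**
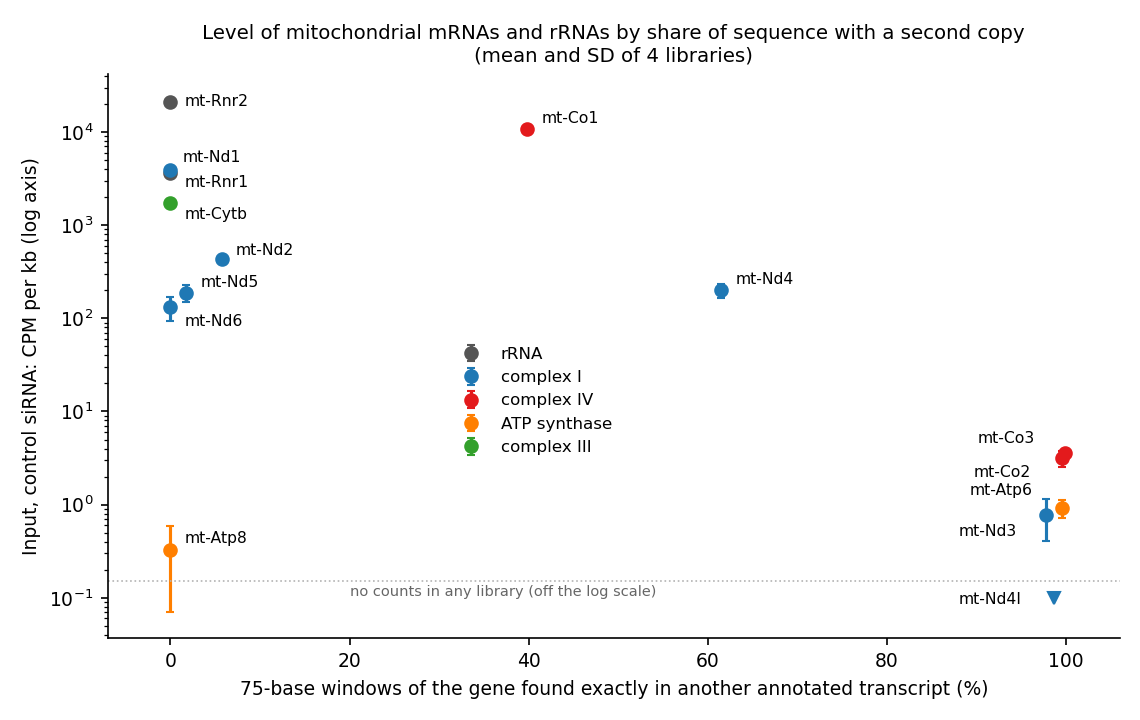
Level of the 13 mitochondrial protein genes and both rRNA genes in input of control cells (CPM per kb, log axis, mean and SD of 4 libraries) against the share of their 75-base windows that occur exactly in another annotated transcript; colours are the complexes. The 5 genes at 97.8% to 99.9% lie at or below 3.55 CPM per kb, mt-Nd4l having no counts. With many shared windows, mt-Co1 (39.8%) and mt-Nd4 (61.5%) are high. The gene mt-Atp8 is low with no shared window, but only annotated transcripts were searched.

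Among the genes tested, mt-Nd4 shared 61.5% of its 75-base windows with Gm28439 and mt-Co1 39.8% with other annotated transcripts, among them Gm29216. Counts on these copies were small beside those of the genes themselves, with 8 to 12 on Gm28439 against 4653 to 6338 on mt-Nd4, and 274 to 333 on Gm29216 against 263985 to 343508 on mt-Co1 (input control). For mt-Nd2 and mt-Nd5 5.7% and 1.7% of windows were shared, and for mt-Nd1, mt-Nd6, mt-Cytb and both rRNAs 0%. Levels of mt-Nd4 and mt-Co1 are therefore uncertain by whatever reads were left out or assigned elsewhere, which was not tested.

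The share of all counts was the measure compared across the 4 groups. In input it was 6.32%, 6.5%, 6.66% and 5.95% in control replicates 1 to 4 and 6.85%, 7.06%, 7.11% and 6.34% in RAM siRNA replicates 1 to 4. In polysomes it was 1.71%, 1.1%, 2.09% and 1.6%, and 2.17%, 1.35%, 2.37% and 1.72%. Within each fraction the siRNA groups overlapped, while every input library was above every polysome library. The largest 95% Wilson interval of a single share was ± 0.012 percentage points, which covers counting error only and is far below the spread between replicates.

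Group means were 6.36% ± 0.309 and 6.84% ± 0.35 in input and 1.62% ± 0.406 and 1.9% ± 0.455 in polysomes (control and RAM siRNA; SD, n = 4). Same-numbered libraries differed in 1 direction, with log2 ratios of RAM siRNA to control of 0.12, 0.12, 0.09 and 0.09 in input and 0.35, 0.3, 0.18 and 0.11 in polysomes. The share was thus higher with RAM siRNA in 4 of 4 pairs in each fraction, by a mean log2 ratio of 0.11 ± 0.01 and 0.23 ± 0.11 (SD, n = 4 pairs). As a ratio of group means the polysome value was 0.23, and it was 0.08 without control replicate 2, 0.37 without control replicate 3, 0.36 without RAM siRNA replicate 2 and 0.11 without RAM siRNA replicate 3, while the input value of 0.11 was 0.07 without control replicate 4. No test was made on this sum of genes. In bulk RNA, more mitochondria per cell, more transcripts per mitochondrion and less nuclear RNA cannot be told apart. The share also includes rRNA left after depletion, and how complete depletion was in each library was not tested.

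The rRNAs and mRNAs contributed unequally. In input the protein genes made up 2.47% ± 0.128 of counts in control and 2.62% ± 0.186 in RAM siRNA cells, and the rRNAs 3.89% ± 0.181 and 4.22% ± 0.236 (SD, n = 4). In polysomes the protein genes were at 0.518% ± 0.0841 and 0.524% ± 0.121, with pair ratios from -0.18 to 0.08 on the log2 scale, and the rRNAs at 1.1% ± 0.358 and 1.38% ± 0.378, with pair ratios from 0.2 to 0.48. As summed shares, the higher polysome value with RAM siRNA thus lay in the rRNAs. The protein sum rests mostly on mt-Co1, whose fitted log2 change in polysomes was 0.02. Those of the other mRNAs tested ran from 0.20 for mt-Nd6 to 0.58 for mt-Nd5, with standard errors of 0.24 to 0.37. Both rRNAs were at 0.37, and none of these changes was called without the block. Replicate 4 had the lowest polysome share of protein genes with either siRNA, whereas replicate 2 had the lowest of rRNA. The 22 tRNA genes together held 0.00253% to 0.00322% of input counts.

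**Figure D2:**
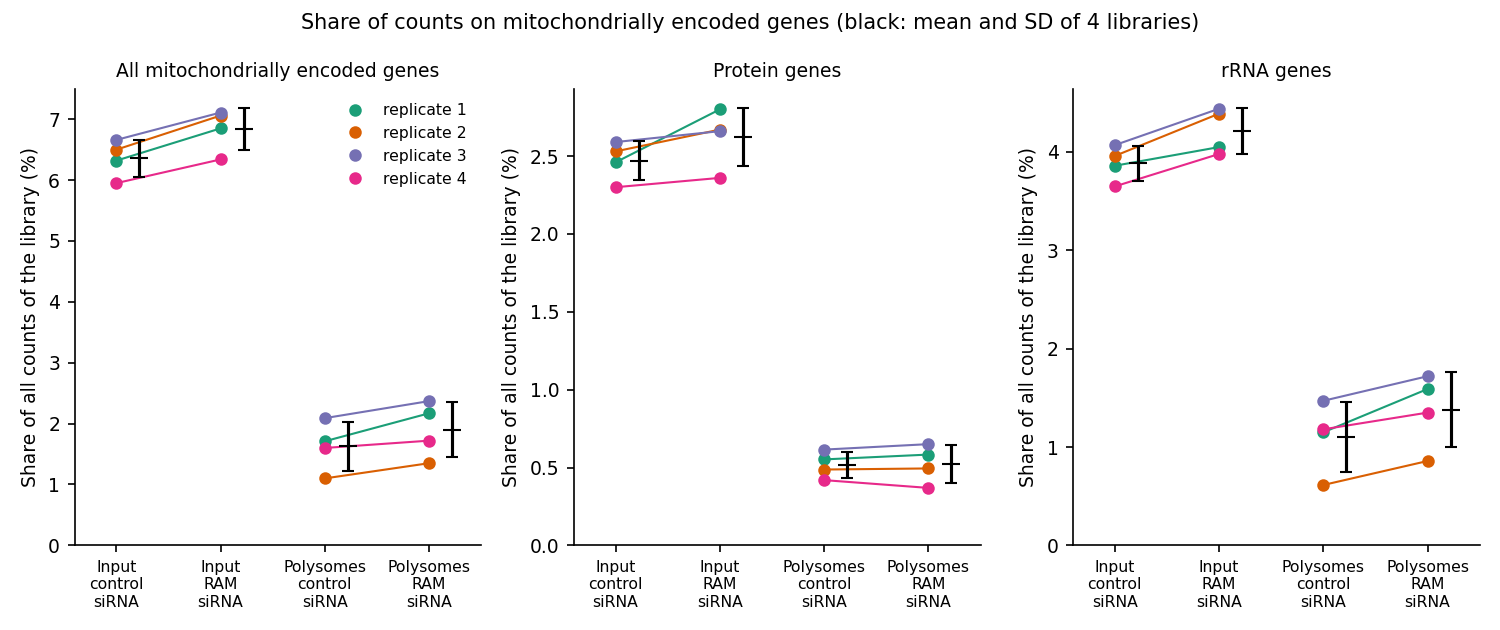
Share of all counts of each library (%) on all mitochondrially encoded genes, the protein genes and the rRNA genes, with a point per library, lines joining same-numbered libraries of both siRNAs, and mean and SD of 4 libraries in black. All 8 input libraries lie between 5.95% and 7.11% and all 8 polysome libraries between 1.1% and 2.37% for the whole set, and for the whole set each line rises, whereas for the protein genes in polysomes the line of replicate 4 falls from 0.419% to 0.369%.

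Most mitochondrial counts came from a pair of genes. In input of control cells mt-Rnr2 held 55.3% ± 0.117 of the mitochondrial counts and mt-Co1 27.5% ± 0.6, and in polysomes of control cells 59.9% ± 6.22 and 27.3% ± 6.45 (SD, n = 4). Relative to the 68 nuclear-encoded subunits of oxidative phosphorylation, the mitochondrial protein genes had 1.51 ± 0.046 counts per nuclear count in input of control cells and 1.62 ± 0.122 in RAM siRNA cells. The corresponding ratios in polysomes were 0.187 ± 0.0209 and 0.184 ± 0.0371 (SD, n = 4). The ranges of both siRNA groups overlapped in either fraction.

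The first test asked which mitochondrial transcripts changed in input on reduction of RAM. Here 1 of the 11 genes passed an adjusted p of 0.05 (quasi-likelihood test of edgeR, Benjamini-Hochberg adjusted over 12805 genes), and it was higher, beside 6.95% of all genes called higher and 5.94% lower. With the replicate block 8 of 11 were called, all higher, beside 20.3% of all genes called higher and 19% lower. The fitted log2 fold changes of the 11 were all positive, from 0.04 to 0.42 with a median of 0.18, against a median of 0.00 for all genes. These genes are cut from shared transcripts and measured in the same lysates, so they do not count as 11 separate observations.

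Complex I transcripts came first. For mt-Nd2, a membrane subunit, input values were 418.8, 463.0, 448.5 and 461.8 CPM in control replicates and 607.8, 611.2, 655.7 and 525.6 CPM in RAM siRNA replicates 1 to 4. Every RAM siRNA library was above every control library, which held for no other gene of those tested here. The share of all genes separated in this way is not given here. On the log2 scale the change was 0.42 ± 0.08 (SE here and for the changes that follow), with adjusted p = 0.00716 in edgeR's quasi-likelihood test, and its adjusted p ranged from 2.18e-19 to 0.697 over all alternatives, the largest being that of replicates 3 and 4 alone, in which 0 of 12805 genes passed.

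The other complex I genes moved less. For mt-Nd1, input values were 3745, 3939, 3682 and 3626 CPM in control and 4764, 4566, 4518 and 3856 CPM in RAM siRNA cells, so replicate 4 with RAM siRNA fell among the control values. The change was 0.24 ± 0.09 on the log2 scale, with adjusted p = 0.115 without and 0.000872 with the replicate block (edgeR). Without the replicate 4 library of RAM siRNA it was 0.30 with an adjusted p of 0.00959 (edgeR). That fit called 1357 of 12805 genes higher and 1149 lower, against 890 and 761 with all libraries. The complex I genes mt-Nd4 and mt-Nd5 changed by 0.17 ± 0.13 and 0.18 ± 0.12, and were called with the block (adjusted p = 0.00588 and 0.0171, edgeR) but not without it, with both siRNA groups overlapping. Without the block mt-Nd4 was 0.10 without control replicate 2, 0.30 without control replicate 3 and 0.07 without RAM siRNA replicate 3, and mt-Nd5 was 0.07 without control replicate 1 and 0.31 without control replicate 3.

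The minus-strand gene mt-Nd6 was the most variable. It ranged from 45.31 to 87.74 CPM in control and from 64.7 to 84.94 CPM in RAM siRNA input libraries, and its pair differences went both ways, from -0.44 to 0.89 on the log2 scale. The fitted change was 0.20 ± 0.17 (adjusted p = 0.491, and 0.127 with the block, edgeR). A difference was not detectable at this spread.

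In complex III, mt-Cytb had input values of 1982, 2026, 2038 and 1936 CPM in control and 2489, 2357, 2548 and 2028 CPM in RAM siRNA cells. As for mt-Nd1, only RAM siRNA replicate 4 lay within the control range. On the log2 scale it differed by 0.24 ± 0.09 (adjusted p = 0.109 without and 0.00085 with the block, edgeR), and without that library 0.31 (adjusted p = 0.00782, edgeR). Leaving that library out raised the genes called higher from 890 to 1357 of 12805.

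In complex IV, mt-Co1 gave another picture. Its input values were 16716, 17162, 18043 and 14804 CPM in control and 18647, 17750, 17503 and 15306 CPM in RAM siRNA cells, with groups that overlapped. The difference was 0.05 ± 0.11 on the log2 scale (adjusted p = 0.81 without and 0.466 with the block, edgeR), and the standard error with the block was 0.05. The difference between the changes of mt-Co1 and mt-Nd2 was not tested.

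The rRNAs followed. Input values of mt-Rnr2 were 33446, 34400, 35628 and 30828 CPM in control and 35932, 38938, 39190 and 33968 CPM in RAM siRNA cells, higher in 4 of 4 pairs although the groups overlapped. The fitted difference was 0.14 ± 0.11 (adjusted p = 0.458 without and 0.043 with the block, edgeR). That of mt-Rnr1 was 0.16 ± 0.10 (adjusted p = 0.308 and 0.0107, edgeR), also higher in 4 of 4 pairs, and 0.10 without RAM siRNA replicate 3 in the fit without the block.

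Both tRNAs rested on few counts. The tryptophan tRNA mt-Tw, with 70 to 113 counts per control and 87 to 130 per RAM siRNA input library, differed by 0.33 ± 0.15 (adjusted p = 0.187 without and 0.0227 with the block, edgeR). The proline tRNA mt-Tp had 97 to 127 and 91 to 143 counts and differed by 0.04 ± 0.14 (adjusted p = 0.872 and 0.798, edgeR). It was higher in 1 of 4 pairs.

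**Figure D3:**
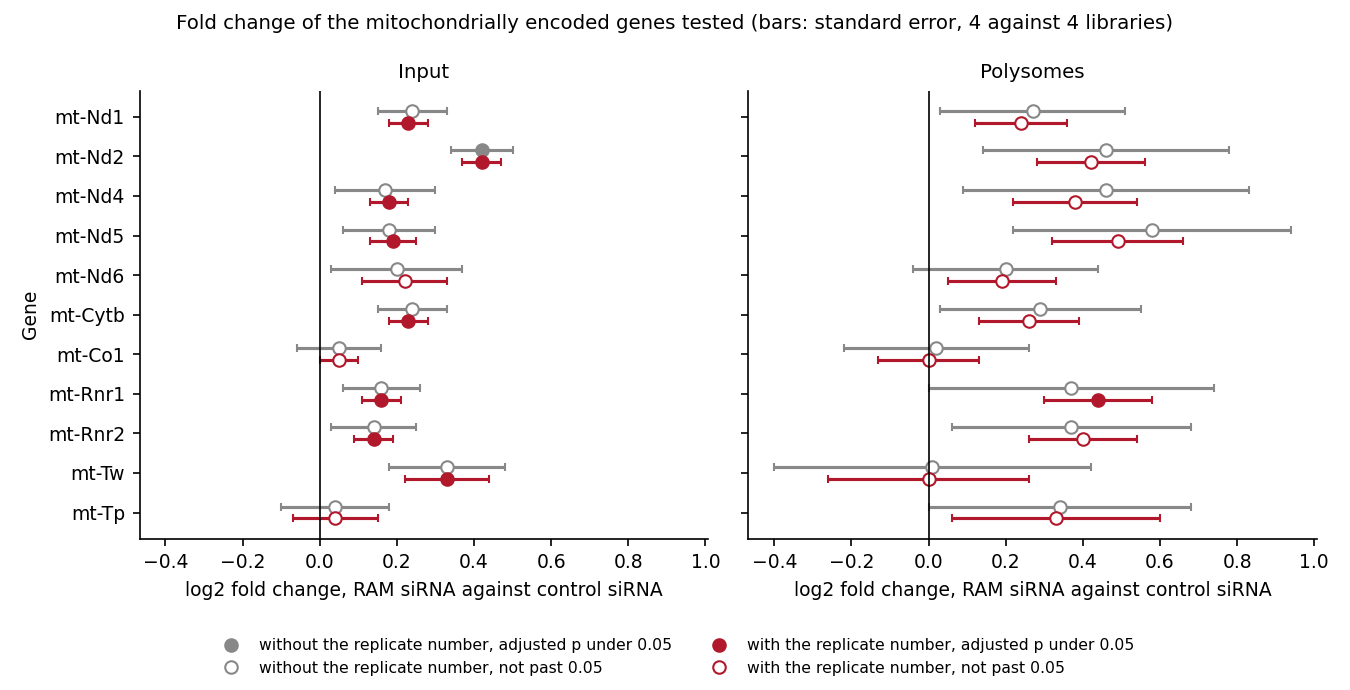
Log2 fold change of RAM siRNA against control siRNA for the 11 genes tested, in input and in polysomes, from edgeR's quasi-likelihood fit without (grey) and with (red) the replicate number; bars are standard errors, and filled points passed an adjusted p of 0.05. In input 1 grey and 8 red points are filled, and in polysomes only the red point of mt-Rnr1, with wider bars.

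The same question in polysomes gave no call without the block. By edgeR's quasi-likelihood test 0 of 11 genes passed, and 0 of 11 had an unadjusted p under 0.05, while DESeq2 also called 0. Of all 12805 genes 0% were called higher and 0.0234% lower by edgeR, and 1152 had an unadjusted p under 0.05. DESeq2 called 156 of the 12805 higher and 144 lower. With the block mt-Rnr1 was called, 1 of 11, beside 9.68% of all genes called higher and 4.97% lower. Fitted log2 fold changes ran from 0.01 for mt-Tw to 0.58 for mt-Nd5 with a median of 0.34, against a median of 0.06 for all genes, and standard errors were 0.24 to 0.41.

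For mt-Rnr1 polysome values were 1141, 548.8, 1826 and 1381 CPM in control and 1609, 953.3, 1987 and 1556 CPM in RAM siRNA cells, higher in 4 of 4 pairs, with groups that overlapped. The change was 0.37 ± 0.37 (adjusted p = 0.929, edgeR) without and 0.44 ± 0.14 (adjusted p = 0.0379, edgeR) with the block. Without the block the change was 0.10 without control replicate 2, 0.65 without control replicate 3 and 0.18 without RAM siRNA replicate 3, and no gene of the 11 was called in these fits (edgeR). The pair differences were larger in replicates 1 and 2, at 0.5 and 0.8, than in replicates 3 and 4, at 0.12 and 0.17. For mt-Rnr2 it was 0.37 ± 0.31 (adjusted p = 0.878, edgeR) and with the block 0.40 (adjusted p = 0.0738, edgeR).

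For 5 of the 7 mRNAs replicate 4 went the other way from replicates 1 to 3. For mt-Nd5 polysome values were 77.52, 61.59, 104.0 and 56.65 CPM in control and 110.7, 134.5, 142.3 and 44.67 CPM in RAM siRNA cells. Its pair differences were 0.51, 1.13, 0.45 and -0.34 on the log2 scale. The complex I genes mt-Nd1, mt-Nd2, mt-Nd4 and mt-Nd5 and mt-Cytb were each higher in 3 of 4 pairs and lower in replicate 4. For mt-Nd6 the pair differences were -0.08, 0.39, 0.27 and -0.07, and for mt-Co1 0.03, 0.02, -0.00 and -0.24. The change of mt-Co1 was 0.02 ± 0.24, and its sign and that of mt-Tw depended on the scaling.

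A further comparison set polysomes against input, the measure of polysome loading. In control cells all 11 genes tested were lower in polysomes, beside 34.3% of all genes called lower and 33.1% higher, with a median log2 difference of -2.32 against -0.00 for all genes. In RAM siRNA cells all 11 were lower as well, beside 25.9% of all genes called lower and 27.3% higher, with a median of -2.14 against 0.04. In both comparisons 11 of 11 were called under the block (37.2% and 29.9% of all genes called lower), DESeq2, each scaling and each library left out. The filter needs more libraries than the 8 of input, and mt-Tt and mt-Co2, for example, failed it because of low polysome counts, so the 11 are not all of the members. How far the lysis buffer opened mitochondria, and whether mitochondrial counts in the polysome fractions lay on ribosomes of either kind, was not measured.

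The complex I mRNAs mt-Nd6 and mt-Nd1 were lowest relative to input. In control cells the log2 difference was -3.34 (standard error 0.22, adjusted p = 4.81e-07, edgeR) for mt-Nd6 and -3.14 (standard error 0.16, adjusted p = 7.24e-08, edgeR) for mt-Nd1, or 9.9% and 11.4% of the input level. In RAM siRNA cells they were -3.34 and -3.11. For mt-Nd2 the log2 difference was -2.84 in control and -2.80 in RAM siRNA cells, and for mt-Cytb -2.80 and -2.75. For mt-Nd4 and mt-Nd5 it was -2.09 and -2.23 in control and -1.81 and -1.83 in RAM siRNA cells. All of these passed with adjusted p of at most 0.0012 (edgeR).

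The differences of the rRNAs and mt-Co1 were smaller than those of mt-Nd1, mt-Nd2, mt-Nd6 and mt-Cytb. In control cells mt-Co1 differed by -1.95 (standard error 0.17), mt-Rnr2 by -1.75 (standard error 0.24) and mt-Rnr1 by -1.55 (standard error 0.29), and in RAM siRNA cells by -1.98, -1.52 and -1.34. The tRNAs mt-Tw and mt-Tp differed by -2.32 and -2.43 in control and by -2.65 and -2.14 in RAM siRNA cells, on 6 to 24 and 14 to 40 counts per polysome library. Each was called in both comparisons (edgeR).

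Because input and polysomes of a culture came from the same lysate, the polysome level was also taken as a percent of the input level in each of the 8 cultures. Both levels are CPM relative to their own library, so this percent is not the part of the RNA found in polysomes. For mt-Co1 it was 29.2%, 24.2%, 28.7% and 23.7% in control and 26.8%, 23.7%, 29.5% and 19.4% in RAM siRNA cultures 1 to 4. For mt-Nd1 it was 13%, 11.2%, 13.2% and 9.18%, and 12%, 13.6%, 12% and 8.03%. For mt-Rnr1 it was 33.7%, 15.6%, 47.8% and 41.6%, and 45.9%, 24.1%, 45.0% and 40.5%. The values of mt-Co1 and mt-Nd1 did not overlap, and mt-Rnr1 was lowest in replicate 2 with either siRNA.

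The order of the genes was partly the same in every culture. Of the 55 pairs of genes tested, 27 had the same order in all 8 cultures. The percent of input for mt-Co1 was above that of mt-Nd1, mt-Nd2, mt-Cytb, mt-Nd6 and mt-Tw in 8 of 8 cultures, by a mean log2 ratio of 1.16 ± 0.17, 0.90 ± 0.28, 0.82 ± 0.16, 1.36 ± 0.37 and 0.62 ± 0.41 (SD, n = 8). That of mt-Cytb exceeded mt-Nd1 in 8 of 8, by 0.34 ± 0.12. In contrast mt-Co1 and mt-Nd4 were each higher in 4 of 8 cultures, and mt-Nd4 exceeded mt-Nd5 in 5 of 8, by 0.08 ± 0.21, a difference within the spread. The rRNAs exceeded mt-Co1 in 7 (mt-Rnr1) and 6 (mt-Rnr2) of 8 cultures, the exceptions lying in replicate 2. The 8 cultures come from 4 experiments with both siRNAs, so they do not count as 8 separate replicates. Ratios of this kind describe these cultures and were not tested.

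**Figure D4:**
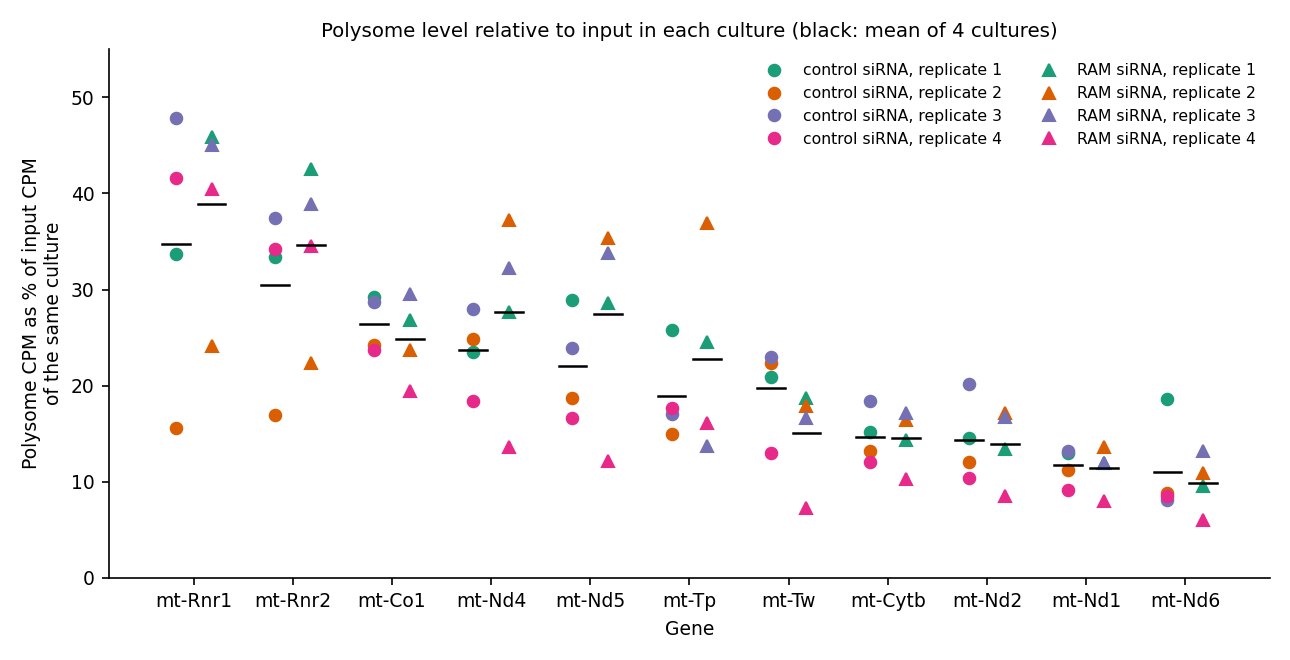
Polysome CPM as a percent of input CPM of the same culture for the 11 genes tested, with circles for control siRNA, triangles for RAM siRNA, colours for replicates and black lines for the mean of 4 cultures. The rRNAs spread from 15.6% to 47.8% with replicate 2 lowest, mt-Co1 lies between 19.4% and 29.5%, mt-Nd1 between 8.03% and 13.6%, and replicate 4 is lowest for mt-Co1, mt-Nd1, mt-Nd2, mt-Nd4, mt-Nd5, mt-Cytb and mt-Tw.

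Whether reduction of RAM changed polysome loading was tested as the interaction of fraction and siRNA over all 16 libraries. By edgeR's quasi-likelihood test 0 of the 11 genes passed, beside 0% of all 12805 genes, and 100 genes had an unadjusted p under 0.05, 0 of them among the 11. DESeq2 called 1 gene of 12805 and 0 of the 11, and the block called 2 genes (0.0156%), both lower, and 0 of the 11. The fitted differences of loading ran from -0.37 for mt-Tw (standard error 0.41) to 0.35 for mt-Nd5 (standard error 0.39), with a median of 0.00 for the 11 and 0.00 for all genes. Standard errors of the 11 were 0.27 to 0.41 without the block, so that changes of loading of this size were not detectable in that fit. With the block, here set for each replicate number within each fraction, they were 0.14 to 0.28.

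The nuclear genes that maintain, transcribe, process and translate mitochondrial DNA and RNA were examined as a list of 58, all of which passed the filter. In input 2 were higher, 2 lower and 54 not called, which is 3.45% in each direction beside 6.95% higher and 5.94% lower of all genes, with a median log2 fold change of 0.05. Tufm, the mitochondrial elongation factor that brings tRNAs to the ribosome, rose from 168 ± 13.1 to 214 ± 6.09 CPM (SD, n = 4; log2 fold change 0.35, adjusted p = 0.0094, edgeR), and Elac2, which cuts the 3′ ends of tRNAs, from 125 ± 6.67 to 162 ± 15.0 CPM (0.37, adjusted p = 0.0117, edgeR). Tefm, the elongation factor of POLRMT, fell from 16.1 ± 2.46 to 11.1 ± 1.53 CPM (-0.53, adjusted p = 0.018, edgeR), and Tfb1m, which methylates the small-subunit rRNA, from 17.2 ± 1.72 to 13.2 ± 0.942 CPM (-0.38, adjusted p = 0.0255, edgeR).

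With the block 15 of the 58 were higher and 4 lower, which is 25.9% and 6.9% beside 20.3% and 19% of all genes. Slirp, a partner of the mRNA stability factor LRPPRC, was then also higher (0.24, adjusted p = 0.000108, edgeR), and Gtpbp3, which modifies tRNA, lower (-0.24, adjusted p = 0.00362, edgeR). In polysomes 0 of 58 were called without the block. With it 3.45% were called higher and 5.17% lower, beside 9.68% and 4.97% of all genes. In this fit 2 were higher, Slirp (0.55, adjusted p = 0.0127, edgeR) and Elac2 (0.40, adjusted p = 0.0371, edgeR), and 3 lower, Tfb1m (-0.47), Tefm (-0.42) and Taco1, a translational activator of mt-Co1 (-0.45, adjusted p = 0.0141, 0.0164 and 0.0218, edgeR).

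The nuclear-encoded partners of the mitochondrial proteins were examined in the same way. Of 68 such subunits, 0 were higher and 3 (4.41%) lower in input, beside 6.95% and 5.94% of all genes, with a median log2 fold change of -0.01, and the 3 were the complex I subunits Ndufc2 (-0.66), Ndufs1 (-0.40) and Ndufs7 (-0.32), named after their values were seen. With the block 4 (5.88%) were higher and 12 (17.6%) lower, beside 20.3% and 19% of all genes. In polysomes against input of control cells 26 (38.2%) were higher and 21 (30.9%) lower, beside 33.1% and 34.3% of all genes, with a median of 0.20, from -2.09 for Cox7c to 1.59 for Uqcrc1, where the mitochondrial median was -2.32. Some nuclear subunits were thus as low in polysomes relative to input as mt-Co1 (-1.95).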

How the data were processed

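RNA sequencing counts per gene were taken for the 16 libraries as deposited. Per the submitters' processing notes and the study's methods, the authors demultiplexed reads with bcl2fastq, aligned them with STAR (2.5.1b) and made raw counts with HTSeq, and edgeR is named for the comparisons. Strand, overlap and multiple-match settings and the annotation release are not given in the sources used here. The table holds 46983 Ensembl gene IDs, 46488 of which had a symbol, and 0 columns of other samples.

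Genes with at least 1 CPM in at least 10 libraries were tested, which left 12805. Tests were edgeR's quasi-likelihood test (edgeR 4.0.16, R 4.3.3) with TMM scaling and Benjamini-Hochberg adjustment, called at an adjusted p of 0.05. Each comparison was fitted on its own groups, and the change of loading on all 4. Standard errors of edgeR fits were taken as the absolute log2 fold change divided by the square root of the test's F statistic. The scripts were tested on simulated data. DESeq2 (1.42.0), other scalings, no filter, replicate subsets and single libraries left out were alternatives.

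Replicate numbers come from the labels. Deviations from group means correlated between same-numbered libraries by 0.315 to 0.64 in input, 0.541 to 0.897 in polysomes and 0.236 to 0.651 between the fractions, on log2(CPM + 0.5), so the numbers were taken to pair the libraries. The study's methods name no replicate factor, so fits without it stand first.

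Named were all mitochondrial protein and rRNA genes, the tRNA genes that passed the filter, Ramac, and of the 58 factors the 3 with the smallest p in each direction among those called. Members and lists were chosen with earlier results of these data known. Sequences are from GENCODE M21 transcripts (GRCm38), read and aligned with Biopython 1.88. Shared sequence was sought among annotated transcripts, not the whole genome. Shares, intervals and figures were made with Python 3.11.15, pandas 2.3.3, scipy 1.17.1 and matplotlib 3.10.9.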

Additional observations from a re-analysis of the deposited data

Results flagged for a closer look

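One value stood apart from its group. The proline tRNA mt-Tp had 1.67 CPM in polysomes of control replicate 1, where the other 3 libraries of the group had 0.95 to 1.07 CPM, a gap of 0.837 of the whole range, above the critical value of Dixon's test for 4 samples. Chance flags about 1 in 20 groups, or 5%, and 48 groups were checked.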

How the results depend on the processing

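Single genes were recomputed in all comparisons, for the change of loading only mt-Tw and mt-Nd5, the ends of its range. Of these 798 values under an alternative, 743 kept their direction and side of the threshold, 28 passed it in addition, 1 lost it and 26 changed sign, none of these 26 being a called value. In input 1 of the mitochondrial genes was called, and 3 with DESeq2 (mt-Nd1, mt-Nd2 and mt-Cytb), 8 with the replicate block, 5 with replicates 1 and 2 only, 0 with replicates 3 and 4 only and 9 with no filter and the replicate block, the last alternative having been chosen after seeing the data. Of all 12805 genes, 890 were called higher in input, 1067 with DESeq2, 2595 with the block and 1416 with replicates 1 and 2 only. With no filter and the block 2583 of 28462 were called higher and 2876 lower. Leaving out single libraries gave 1 to 3, with 3 without RAM siRNA input replicate 4, where 1357 of all 12805 genes were called higher. The call of mt-Nd2 was lost with replicates 3 and 4 only, at 0.37 (adjusted p = 0.697, edgeR), a fit on fewer samples that called no gene. In polysomes 0 were called, 1 with the replicate block, 4 with no filter and the block, and 0 with any single library left out. With no filter and the block 1373 of 25266 genes were called higher and 947 lower. In polysomes against input 11 were called, 22 with no filter and 22 with no filter and the block in control cells, and 23 and 21 in RAM siRNA cells, where more genes entered the fit, and 11 with any library left out. The genes that entered without the filter included mt-Co2, mt-Co3, mt-Atp6 and mt-Nd3, whose counts cannot be read as a transcript level. The 9 genes at 0 counts in all 16 libraries could not enter. With no filter 6760 of 27306 genes were called lower in control and 5548 of 27758 in RAM siRNA cells. Adding the block gave 6634 and 5660. For the change of loading 0 were called throughout. Across the whole table DESeq2 called 156 genes higher and 144 lower in polysomes with RAM siRNA and the block 1239 and 636, against 0 and 3, and the cause was not tested.

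The log2 ratio of the share of all 37 genes was 0.11 in input, 0.23 in polysomes, -1.85 for polysomes against input in RAM siRNA cells and 0.12 for the change of loading. With the protein genes alone, or with the rRNA genes left out, these were 0.09, 0.02, -2.32 and -0.07, and as the mean over pairs, the replicate block of this measure, 0.11, 0.23, -1.88 and 0.13. With single libraries left out they ran from 0.07 to 0.14, 0.08 to 0.37, -1.97 to -1.71 and -0.02 to 0.27, and for control cells from -2.11 to -1.82.

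Among them signs turned for 4 genes, mt-Co1, mt-Nd6, mt-Tp and mt-Tw, none called. In input, with replicates 3 and 4 only, mt-Co1 was -0.00 and mt-Nd6 -0.04, and mt-Tp was -0.03 with replicates 1 and 2 only, while single libraries left out gave -0.00 to 0.11 for mt-Co1 and -0.06 to 0.13 for mt-Tp. In polysomes mt-Tw was -0.01 with DESeq2, -0.01 with RLE scaling, -0.06 with library size alone, -0.05 with no filter, -0.00 with the block, -0.17 with replicates 3 and 4 only and -0.06 with no filter and the block, and -0.21 to 0.26 with single libraries left out. There mt-Co1 was -0.04 with library size alone, -0.03 with no filter, -0.03 with replicates 3 and 4 only and -0.05 with no filter and the block, and -0.11 to 0.14 with single libraries left out, and mt-Tp was -0.05 with replicates 3 and 4 only. The tRNAs tested rested on 6 to 143 counts per library.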
